A study of Mus musculus with 2 samples.

Results

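Mouse miRNAs are numbered in the order in which they entered miRBase, the registry of miRNA sequences, so the highest numbers belong to the entries registered last. The miRNAs described here are the 195 rows of the deposited count table with a number of 6000 or above that had a count above 0 in both libraries. They were chosen by these measured counts, out of 412 rows with such numbers and 1358 rows in all. Of the rows not chosen, 54 had counts in replicate 1 only, 52 in replicate 2 only and 111 in neither. The 195 miRNAs came from 164 hairpin names, and 31 hairpins gave both of their arms. By name, 90 were 5p arms, 87 were 3p arms and 18 carried no arm.

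The samples were wild-type retinas at postnatal day 0 from CD-1, a laboratory mouse stock kept by outbreeding. No genotype or treatment was compared: there was 1 group with 2 libraries, called replicate 1 and replicate 2. The labels name no animals, litters or pools behind the replicates, so their spread may be technical. The count table held 8337902 counts in replicate 1 and 8118208 in replicate 2, and CPM is the count scaled to a common library size by these totals. A single count was worth 0.120 CPM in replicate 1 and 0.123 CPM in replicate 2. Among marker miRNAs, miR-9-5p, miR-182-5p and miR-183-5p of the neural retina stood at 227200, 110064 and 65116 CPM. The other neural retina markers, miR-96-5p and miR-124-3p, stood at 5964 and 649 CPM. The 15 markers of pigment epithelium, blood, leukocytes, endothelium, lens and surface epithelium, muscle and liver lay between 0 and 3389 CPM. The highest of these were miR-204-5p of the pigment epithelium at 3389 CPM and miR-126a-3p of endothelium at 905 CPM. The leukocyte markers miR-223-3p and miR-150-5p and the surface epithelium marker miR-205-5p were at 0; 3 counts, the limit that an empty row allows, are worth 0.36 and 0.37 CPM. The part of other cell types in the levels of the late-numbered miRNAs was not tested.

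A miRNA is cut from a hairpin, a stretch of RNA folded back on itself, whose left side gives the 5p arm and whose right side gives the 3p arm. Most hairpins are cut from a longer transcript by the enzyme Drosha and then trimmed by Dicer. In a mirtron the hairpin is instead an intron, or the end of one, so that splicing makes at least 1 of its ends and Drosha is not needed there. In a conventional mirtron splicing makes both ends. In a 5′-tailed mirtron only the 3′ end is made by splicing, so its 3p arm finishes where the intron finishes, at the letters AG that close nearly every intron. In flies, an enzyme that adds U residues to 3′ ends of RNA is known to act on mirtron hairpins. The miRNA finds its targets mainly through its seed, bases 2 to 8 from its 5′ end.

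The following 8 annotated mature sequences are shown because they carry the splice-site ending and had the highest levels among 3p arms matched to such sites or, for miR-7068-3p, came from a hairpin that fills a whole intron. They are from RefSeq (GRCm38.p6), written 5′ to 3′ with the seed in capitals.
miR-7043-3p: aCUGUGCCucucuguuuucag
miR-6944-3p: uAACUCUUcccuugugcccucag
miR-6911-3p: uCAAUCACacucuguccacag
miR-7079-3p: uGACUUCUguucucuuuccag
miR-7226-3p: uGACACAGccauucucugagcag
miR-6988-3p: uGACCUCUguaucuccugccag
miR-6899-3p: uUGUCCUUcugugucuucugcag
miR-7068-3p: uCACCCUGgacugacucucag
Each of these ends in ag, and no seed occurs more than once among them. The next 8 lines give, for the same miRNAs, the most frequent read in replicate 1 as deposited by the authors, with T in place of U and with capitals marking bases that are not part of the miRBase 21 sequence.
miR-7043-3p: Tactgtgcctctctgttttcag
miR-6944-3p: taactcttcccttgtgccctcagT
miR-6911-3p: tcaatcacactctgtccacagT
miR-7079-3p: tgacttctgttctctttccagT
miR-7226-3p: tgacacagccattctctgagcagT
miR-6988-3p: tgacctctgtatctcctgccagT
miR-6899-3p: ttgtccttctgtgtcttctgcag
miR-7068-3p: tcaccctggactgactctcagT
Of the 8 reads, 6 carried a single T after the final ag. The read of miR-7043-3p began 1 base early instead, and that of miR-6899-3p matched the annotation in replicate 1 and carried the T in replicate 2.

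Together the 195 miRNAs held 7319 counts in replicate 1 and 7159 in replicate 2. That was 0.0878% of the table (95% exact binomial interval 0.0858 to 0.0898) and 0.0882% (0.0862 to 0.0903), or 880 ± 2.86 CPM (SD, n = 2). miR-6540-5p alone held 3850 and 3871 counts, 469 ± 10.7 CPM (SD, n = 2), which placed it at rank 100 among all miRNAs. Without it the remaining 194 held 0.0411% of the counts, or 411 CPM. The hairpin of miR-6540 lies on chromosome 16 at chr16:42303362-42303469 (GRCm38, minus strand), inside an intron of 48106 bases of Gap43, which encodes a growth-associated protein of extending axons, and 10995 bases from the end of that intron.

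Most of the 195 were rare. The median level was 0.545 CPM, against 9.13 CPM for the 729 other miRNAs above 0 in both libraries and 3.65 CPM for all 924. Under 1 CPM lay 131 of the 195 (67.2%), 57 lay between 1 and 10 CPM, 6 between 10 and 100 CPM and 1 above 100 CPM. Of the 729 others, 179 lay above 100 CPM. The choice required only 1 count in each library: 63 of the 195 had a single count in at least 1 library, and 19 had a single count in both. Just outside it were miR-7017-5p with 6 counts in replicate 1 and 0 in replicate 2, and miR-7012-3p and miR-7014-5p with 0 in replicate 1 and 5 in replicate 2. At least 10 counts in each library were reached by 46 of the 195. Levels of different miRNAs also hold the efficiency with which adapters join to each sequence, so small differences in level between miRNAs are not read here.

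**Figure D1:**
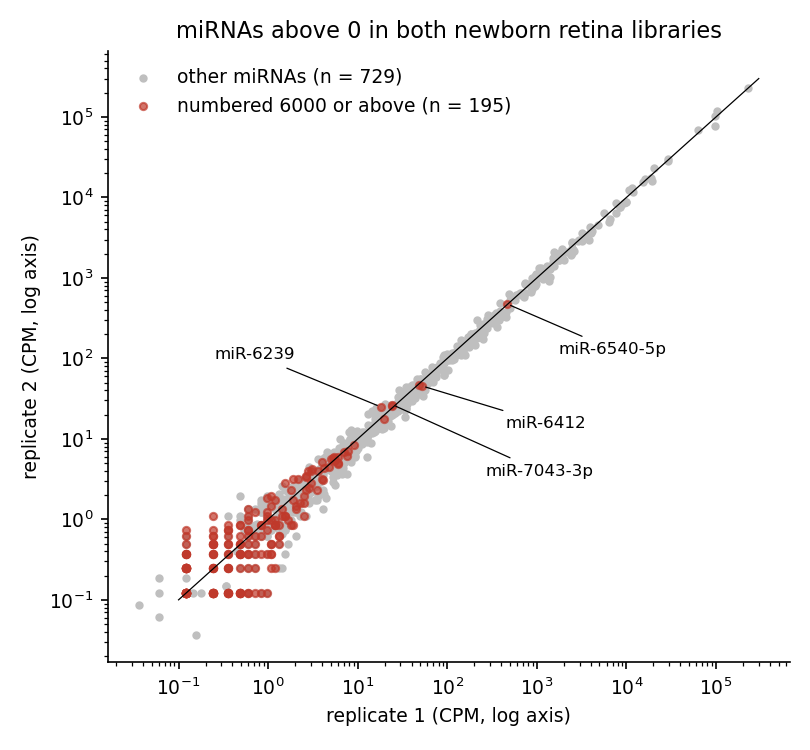
Level of each miRNA in replicate 1 (x axis) and replicate 2 (y axis), in CPM on log axes, for the 195 miRNAs numbered 6000 or above (red) and the 729 others (grey); the line marks equal levels. A single red point, miR-6540-5p, lies above 100 CPM, and 131 red points lie under a mean of 1 CPM, where the values step by whole counts.

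After miR-6540-5p came miR-6412 with 432 and 370 counts in replicates 1 and 2 (48.7 ± 4.41 CPM, SD, n = 2) and miR-7666-3p with 403 and 377 (47.4 ± 1.34 CPM). miR-7043-3p had 201 and 217 counts (25.4 ± 1.85 CPM) and miR-7224-3p had 203 and 207 (24.9 ± 0.814 CPM). miR-6239 had 152 and 202 counts (21.6 ± 4.70 CPM), the widest spread among the leading 7 relative to the mean, and miR-6944-3p had 163 and 144 (18.6 ± 1.28 CPM). The leading 7 are all the late-numbered miRNAs above 10 CPM, and 4 of them are 3p arms. Below them miR-7689-3p had 76 and 68 counts (8.75 ± 0.522 CPM), miR-6911-3p had 65 and 57 (7.41 ± 0.548 CPM) and miR-7079-3p had 59 and 55 (6.93 ± 0.213 CPM). By sum, the 90 5p arms held 535 ± 12.1 CPM, the 87 3p arms 253 ± 5.80 CPM and the 18 without an arm 92.1 ± 3.42 CPM (SD, n = 2). By median the order of the arms differed, with 0.395 CPM for 5p arms and 0.674 CPM for 3p arms, since miR-6540-5p made up most of the 5p sum.

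The positions of the hairpins were not used directly in the choice. The registry number was used, and entries registered together may share a kind of position. Only hairpins of detected miRNAs were set against gene models, so the late-numbered rows outside the 195 give no comparison. Whether the shares below go with detection in the retina or only with late registration was therefore not tested. RefSeq held a mature sequence for 174 of the 195, and a hairpin position for 137 hairpins, which were set against GENCODE M21 gene models of the same build (GRCm38). A hairpin was placed at a splice site where its end lay within 10 bases of an intron end on its own strand. At a 3′ splice site ended 96 of the 137 hairpins (70.1%), against 22 of 399 hairpins of the other detected miRNAs (5.51%). The fit was mostly exact: 91 of the 137 (66.4%) ended on the last base of the intron, against 9 of 399 (2.26%). Of the 96, 90 reached only the 3′ splice site, the layout of a 5′-tailed mirtron. The other 6 reached both splice sites within 10 bases, at or near the layout of a conventional mirtron. Among them, Mir7034 began 7 bases inside its intron. Only the 5′ splice site lay within 10 bases for 2 hairpins, Mir6977 in Ptprs and Mir6418 in Gnb2. The end of Mir6418 stood at −30 bases to its intron end, so this hairpin also crossed the 3′ splice site. Elsewhere in introns lay 19 hairpins (13.9%, against 37.1% of the others). Another 13 overlapped an exon, 1 was antisense to a gene and 6 lay outside other genes.

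**Figure D2:**
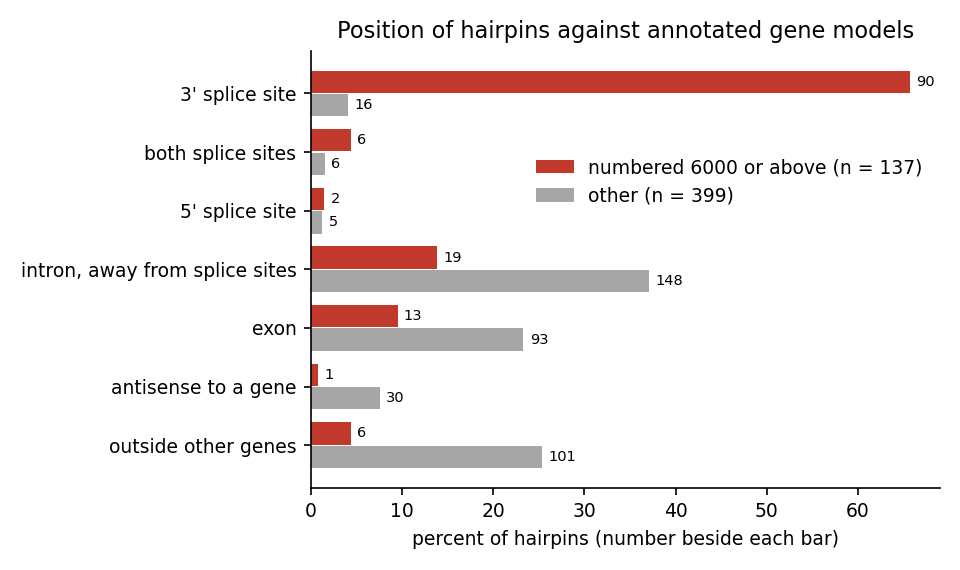
Position of 137 hairpins numbered 6000 or above (red) and 399 other hairpins (grey) against annotated gene models, as percent of each set on the x axis, with the number of hairpins beside each bar. The red bar for the 3′ splice site holds 90 hairpins (65.7%) and the grey bar 16 (4.01%), while the grey bars are longer for introns away from splice sites, exons and regions outside other genes.

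The host introns of the 96 hairpins ran from 73 to 36269 bases, with a median of 443 and quartiles of 115 and 1494. Over all 137 placed hairpins the median hairpin length was 64 bases, against 83 for the 399 others. Mir7043 lies at chr6:116645978-116646047 (minus strand), at the end of an intron of 1589 bases of Rassf4, a protein with a Ras-association domain. Mir6944 lies at chr13:55477681-55477776 (minus strand) and is itself the whole intron of 96 bases in Dbn1, which encodes drebrin, an actin-binding protein of neurons. Mir6911 at chr10:80278164-80278232 (plus strand) closes an intron of 550 bases in Dazap1, an RNA-binding protein gene. Mir7079 at chr8:123104975-123105043 (plus strand) closes an intron of 1089 bases in Rpl13, which encodes a ribosomal protein. These hosts are of unrelated kinds, and the hairpin ended on the last intron base in each.

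Further hosts follow the same layout at both ends of the size range. Mir7226 at chr4:118210505-118210564 (minus strand) ends an intron of 112 bases in Ptprf, a receptor phosphatase gene. Mir6988 at chr19:6051334-6051392 (plus strand) ends an intron of 82 bases in Syvn1, which encodes a ubiquitin ligase of the endoplasmic reticulum. Mir6899 at chr1:64042438-64042501 (minus strand) ends the longest of these introns, 36269 bases, in Klf7, a zinc-finger transcription factor gene. Mir6996 at chr2:26470059-26470119 (minus strand) ends an intron of 215 bases in Notch1, the receptor known for keeping retinal progenitors undifferentiated. Mir7068 at chr8:72470016-72470089 (minus strand) fills an intron of 74 bases in Cherp. The other hairpins that fill an intron were Mir6958 in Dennd6b (73 bases), Mir7091 in Dnase1l1 (79 bases) and Mir7060 in Fbrs (137 bases). Mir7034 in Tmem120a began 7 bases inside its intron of 91 bases and ended on the last base of it.

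The 3p sequences carried the letters of intron ends. For arms at 3′ splice sites these letters follow from the position and are no separate evidence. Of 50 late-numbered 3p arms with a hairpin at a 3′ splice site, 46 ended exactly on the last intron base, and the other 4 within 2 bases of it. The same number, 46 of 50 (92%), ended in AG. Over all late-numbered 3p arms with a RefSeq sequence, 50 of 76 (65.8%) ended in AG, against 24 of 288 other 3p arms (8.33%). Pyrimidines (C and U), which line the end of an intron before its AG, made up a median of 68.2% of these 76 sequences and 54.5% of the 288. The 5p arms differed the other way: 82 late-numbered 5p arms had a median of 41.7% G against 28% in 271 others. Their total G and C content had a median of 58.7%, against 47.8%.

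Arm use was tested inside each library with an exact binomial test (two-sided, equal counts of both arms). The p-values were adjusted by Benjamini-Hochberg over every hairpin of the table whose arms together reached 10 counts in the first and also in the other library. An arm was called higher when the sign was shared by the libraries, the adjusted p was below 0.05 in each, and the log2 ratio exceeded 2 SD in the mean. The test covers counting error only. Of 102 late-numbered hairpins with both arms listed, 35 had enough counts and 67 did not. An arm difference was called in 29 of the 35, a share near the 89.4% called over all 312 hairpins tested, so the presence of a difference did not set them apart. The direction did differ in number: the 3p arm was called higher in 25 of 35 (71.4%), beside 43.3% of all 312. With 0.5 added to each count, the 3p arm was at least 4-fold above the 5p arm in each library in 25 of the 35. The 5p arm was as far above the 3p arm in 4, and neither was in 6. Among the 277 other hairpins the 3p arm dominated in this way in 90, the 5p arm in 122 and neither in 65. One of the 25 is miR-7030, whose empty 5p arm allows a limit of only 3.67-fold in replicate 2. When 1 was added to each count, 24 of the 35 were dominated by 3p. The median log2 ratio of 5p over 3p, with 0.5 added to each count, was −4.36 in the 35, 0.87 in the 277 and 0.21 in all 312. In 9 of the 35 the 5p arm had no count in either library, and with these set to the limit that 3 counts per library allow, the median was −3.01.

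Several hairpins with a larger 3p arm had no count on the other side, so that only a lower limit of the ratio can be given. miR-7666-5p had 0 counts in both libraries beside 403 and 377 of miR-7666-3p, so the 3p arm was at least 134-fold higher in replicate 1 and at least 126-fold higher in replicate 2. miR-7043-5p had 0 counts in both beside 201 and 217 of miR-7043-3p, at least 67.0-fold and 72.3-fold higher. miR-6899-5p had 0 counts beside 46 and 44 of miR-6899-3p, at least 15.3-fold and 14.7-fold higher. In these 3 hairpins every read counted was from the 3p arm. miR-7224 had 3 and 2 counts of its 5p arm beside 203 and 207 of its 3p arm, so 98.5% of replicate 1 (95% exact interval 95.8 to 99.7) and 99.0% of replicate 2 (96.6 to 99.9) were 3p. The remaining 21 with a called and larger 3p arm had mean log2 ratios (0.5 added) from −6.05 in miR-7079 to −2.77 in miR-6977. Of the 21, miR-7648, miR-6928, miR-7065, miR-6965, miR-6958 and miR-7030 also had 0 counts of 5p in both libraries. With 3 counts allowed for the empty arm, their mean log2 limits ran from −2.97 in miR-7648 to −1.94 in miR-7030. Elsewhere among the 21, miR-7079 had 0 and 1 counts of 5p beside 59 and 55 of 3p, and miR-7226 had 1 and 0 beside 44 and 47. miR-6988 had 1 and 0 beside 50 and 41, and miR-6996 had 1 and 0 beside 33 and 42. The 3p arm was the larger in each library in all 25.

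Where the 5p arm was the larger, the hairpins were of several kinds. miR-6540 had 3850 and 3871 counts of 5p beside 4 and 4 of 3p, a log2 ratio of 9.74 ± 0.0055 (SD, n = 2). miR-7658, whose hairpin overlaps an exon of Plekhn1, had 64 and 50 of 5p beside 0 and 1 of 3p, a log2 ratio of 6.04 ± 1.37. The other pair sat at 3′ splice sites: miR-7059 in Cln3, the gene of a lysosomal membrane protein, had 26 and 34 of 5p beside 2 and 1 of 3p (3.96 ± 0.79). miR-7063 in Ap2a2, a subunit of the clathrin adaptor, had 16 and 14 of 5p beside 1 and 1 of 3p (3.37 ± 0.13). An end at a splice site was therefore found with either arm in use. Of the 21 tested hairpins at a 3′ splice site, 17 were dominated by 3p, 2 by 5p and 2 by neither, with a median log2 ratio of −5.09 (−3.91 with the 7 empty 5p arms at their limit). The 13 hairpins with lower numbers at such sites divided as 3 by 3p, 5 by 5p and 5 by neither, with a median of −1.27.

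**Figure D3:**
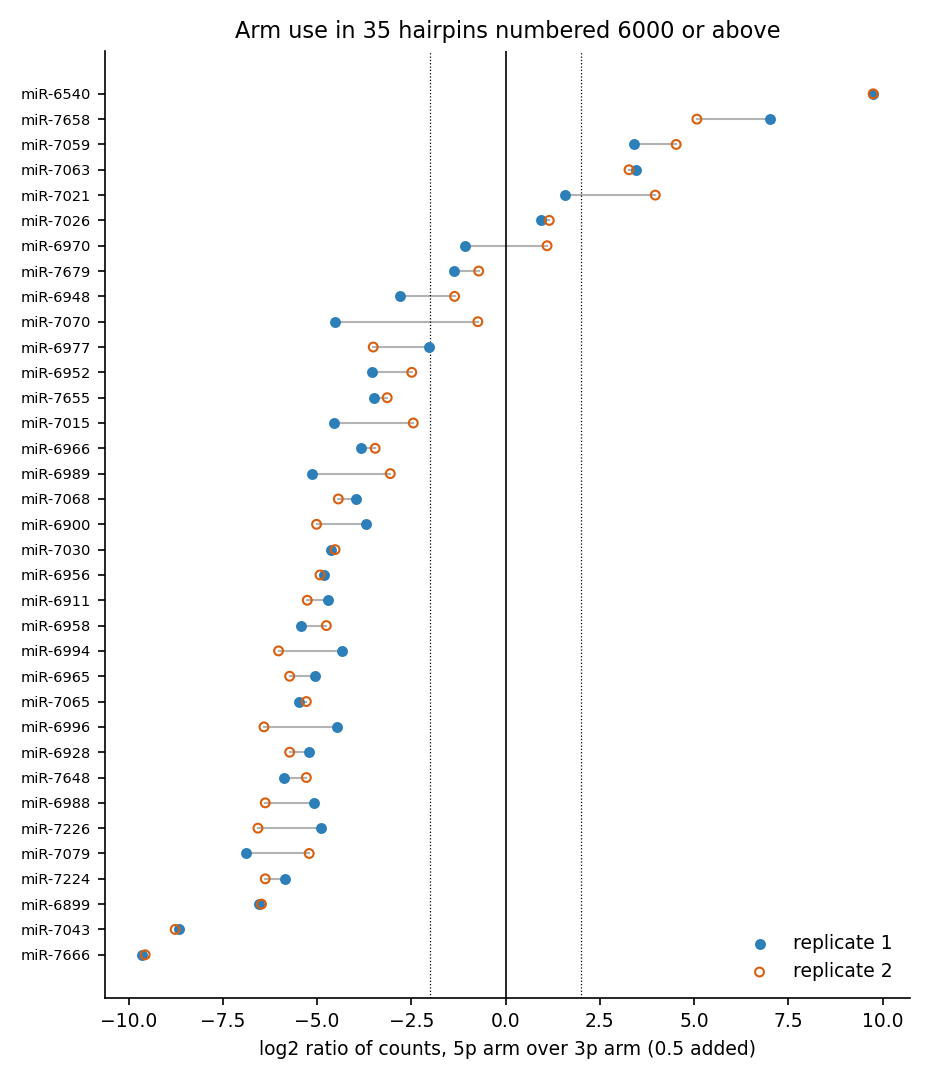
Log2 ratio of 5p over 3p counts (x axis, 0.5 added to each count) in replicate 1 (filled) and replicate 2 (open) for the 35 hairpins numbered 6000 or above with enough counts; dotted lines mark a 4-fold ratio and grey lines join the replicates. In 25 hairpins both points lie left of the lower dotted line and in 4 both lie right of the upper one; the ends of the range are miR-7666 (−9.61, with an empty 5p arm) and miR-6540 (9.74).

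No arm difference was called in 6 hairpins. In miR-7070 the 5p and 3p counts were 0 and 11 in replicate 1 and 4 and 7 in replicate 2, and in miR-6970 they were 4 and 9, then 7 and 3. miR-6948 had 2 and 17, then 4 and 11. miR-7679 had 9 and 24, then 12 and 20. miR-7026 had 10 and 14 counts of 5p and 5 and 6 of 3p. miR-7021 had 13 and 23 counts of 5p and 4 and 1 of 3p. All 6 had low counts. The called hairpin miR-7030 also had low counts, with 0 and 0 of 5p beside 12 and 11 of 3p, all on 1 side. Whether depth kept the 6 from being called was not tested. Only miR-6970 changed sides between the libraries.

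The deposited table of most frequent reads gives 1 sequence per miRNA and library. It holds no read number for that sequence, so the share of reads it stands for is unknown. For 66 of the 195 (33.8%) the same sequence was listed in both libraries, against 548 of the 729 others (75.2%). Level moved with this: under 1 CPM the shares were 20.6% and 36.6%, between 1 and 10 CPM 57.9% and 72.9%, and between 10 and 100 CPM 83.3% (5 of 6) and 88.8%. With at least 10 counts in each library they were 67.4% (31 of 46) and 87.1% (466 of 535). Examples with a different read in each library were miR-6239, miR-7658-5p, miR-7655-3p, miR-6899-3p and miR-6538. In miR-7658-5p the added bases were ACT in replicate 1 and A in replicate 2, and in miR-7655-3p they were C and T.

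Bases beyond the annotated 3′ end were listed in both libraries for 62 of the 195 (31.8%) and 159 of the 729 others (21.8%). A single T was the whole addition in 42 miRNAs in replicate 1, 39 in replicate 2 and 30 in both (15.4%), against 44 of the others in both (6.04%). Nearly all of it fell on 3p arms: 28 of 87 late-numbered 3p arms (32.2%) had the single T in both libraries, but 1 of 90 5p arms. For other miRNAs these numbers were 24 of 338 3p arms (7.10%) and 16 of 326 5p arms. The 30 included miR-7224-3p, miR-6944-3p, miR-6911-3p, miR-7079-3p, miR-6900-3p, miR-7226-3p and miR-6988-3p among the most abundant 3p arms. miR-7666-3p, the most abundant 3p arm, had the addition AGT in both libraries.

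By position, the added T was listed mostly at 3′ splice sites. Of the 50 late-numbered 3p arms with a hairpin there, 29 carried it in replicate 1, 28 in replicate 2 and 22 in both (44%). Of the 19 late-numbered 3p arms placed elsewhere, 0 carried it in replicate 1, 1 in replicate 2 and 0 in both. Late-numbered 3p arms without a matched position were left out of both classes, and several of them carried the T in both libraries. One was miR-7224-3p, with 203 and 207 counts, which has no RefSeq sequence. Its hairpin lies in an intron of B3galt1 away from splice sites. Another was miR-6956-3p, with 42 and 45 counts and also no RefSeq sequence, whose hairpin ends at a 3′ splice site in Triobp. The miRNAs with lower numbers also had the T more often at 3′ splice sites, in both libraries in 4 of 16 3p arms there (25%) and in 14 of 252 elsewhere (5.56%). These counts start from the annotated end of each miRNA, and counts from the intron end, given further on, bring the lower-numbered arms at splice sites nearer to the late-numbered ones. Level was not matched in these counts, since 30 of the 50 lay under 1 CPM. Within 1 to 10 CPM the added T was present in both libraries in 11 of 18 late-numbered 3p arms at 3′ splice sites (61.1%), in 2 of 10 lower-numbered 3p arms at such sites, in 0 of 7 late-numbered ones elsewhere and in 5 of 73 lower-numbered ones elsewhere (6.85%). No test was made of these shares, and the hairpins are not replicates of a condition.

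**Figure D4:**
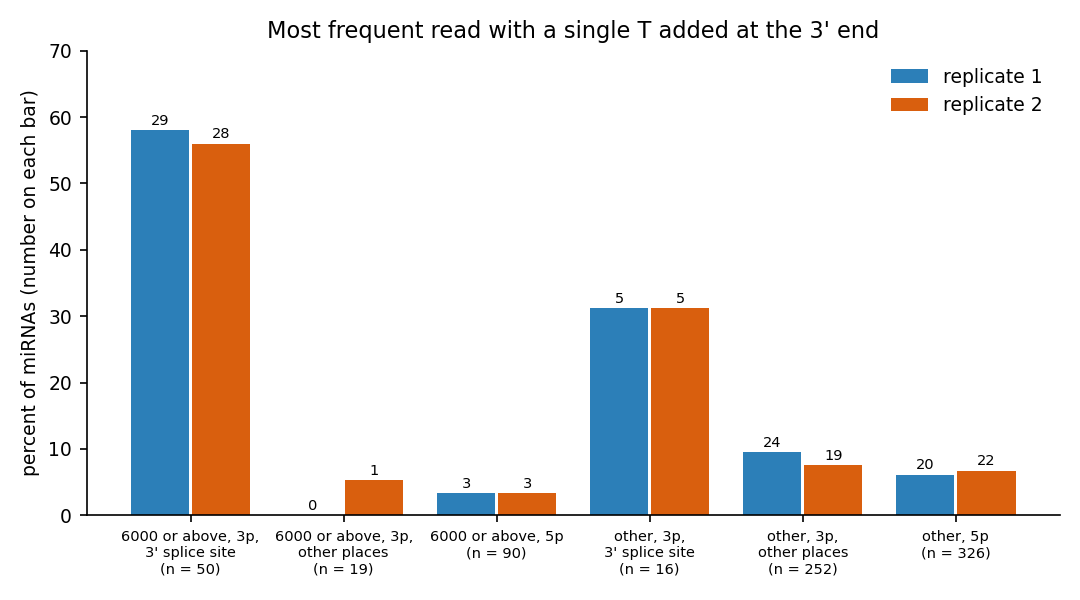
Percent of miRNAs (y axis) whose most frequent read had a single T as its whole addition after the annotated 3′ end, in replicate 1 (blue) and replicate 2 (orange), by number, arm and hairpin position; the number of miRNAs stands on each bar. The 3p arms numbered 6000 or above at 3′ splice sites reach 58% (29 of 50) and 56% (28 of 50), the lower-numbered 3p arms at such sites reach 31.3% (5 of 16) in each library, and the other 4 classes stay below 10%. Counted from the intron end in place of the annotated end, the lower-numbered arms at splice sites have 7 and 8 of 16. Left out are 3p arms without a matched position, among them miR-7224-3p and miR-6956-3p, which had the T in both libraries.

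Because the intron ends at the splice site, a T there can be compared with the base that the exon holds next. This comparison, and that of read ends with intron ends, were chosen after the values of the added bases were seen. Of the 50 late-numbered 3p arms at 3′ splice sites, the most frequent read ended before the last intron base in 5 in replicate 1 and 10 in replicate 2. It ended exactly on it in 9 and 9, and ran past it in 36 and 31. Of those that ran past it, 30 (60% of the 50) and 28 (56%) did so by a single T, 22 of them in both libraries (44%). The 16 lower-numbered 3p arms at 3′ splice sites ran past the intron by a single T in 7 (43.8%) and 8 (50%), and in both libraries in 5 (31.2%). At 1 to 10 CPM the numbers were 12 and 13 of 18 late-numbered and 3 and 6 of 10 lower-numbered arms. A single T past the intron end was thus listed in both sets, and the difference between them was not tested. The first exon base, read from annotated transcripts of the reference strain C57BL/6J, was G in 29 of the 50 genes, A in 9, C in 9 and T in 3 (6%). Of the 22 with a single added T in both libraries, the exon base was T in 1, miR-7226-3p in Ptprf, and another base in 21, namely G in 14, A in 4 and C in 3. In 21 of 22 the T thus differed from the first exon base of the reference strain; CD-1 sequence was not compared. Of the more abundant ones, miR-6944-3p, miR-6911-3p and miR-7079-3p had G next in the exon and miR-6988-3p had C.

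A start other than the annotated one was listed in both libraries for 27 of the 195 (13.8%), against 109 of the 729 others (15.0%). A shifted start changes the seed, as the sequences in this paragraph show, with bases before the annotated start and mismatched bases in capitals.
miR-7043-3p read: Tactgtgcctctctgttttcag
miR-7073-5p annotated: uGGGGGAAuugaaagacuauga
miR-7073-5p read: TCtgggggaattgaaagactatg
miR-7021-5p annotated: aUAGGAGUugauuacagagcaa
miR-7021-5p read, replicate 1: TCataggagttgattacagagc
miR-7021-5p read, replicate 2: Cataggagttgattacagagc
In the annotated lines capitals mark the seed. The read of miR-7043-3p began 1 base early in both libraries, so its seed was ACUGUGC in place of CUGUGCC. That of miR-7073-5p, at a 3′ splice site of Cnot1, a subunit of the deadenylase complex, began 2 bases early in both, with the seed CUGGGGG in place of GGGGGAA. miR-7021-5p, in Prdm2, began 2 bases early in replicate 1 and 1 in replicate 2, giving CAUAGGA and AUAGGAG in place of UAGGAGU. The 3 miRNAs had mean levels of 25.4, 2.07 and 2.20 CPM. Seeds of reads with other starts were derived for 23 miRNAs with a RefSeq sequence.

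Mismatches to the miRBase sequence were listed in both libraries for 13 of the 195 (6.67%) and 38 of the 729 others (5.21%), and several fell on the abundant miRNAs without an arm in their names. Annotated sequences (seed in capitals) and reads (bases that differ or extend in capitals) are shown for 3 of these, because their most frequent read differed from the annotated miRNA inside the sequence.
miR-6412 annotated: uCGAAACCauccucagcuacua
miR-6412 read, both libraries: tcgaaaccatcctcTgctacCa
miR-6239 annotated: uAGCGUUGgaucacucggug
miR-6239 read, replicate 1: CGACTCTtagcgGtggatcactcggC
miR-6239 read, replicate 2: GACTCTtagcgGtggatcactcggCTCGTG
miR-6236 annotated: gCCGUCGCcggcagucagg
miR-6236 read, both libraries: CGgccgtcgccggcagtcGgA
The read of miR-6412 differed at 2 bases and was the same in both libraries. The read of miR-6239 began 7 bases early in replicate 1 and 6 in replicate 2 and held 2 and 3 mismatches. miR-6236, with 33 and 26 counts (3.58 ± 0.534 CPM, SD, n = 2), began 2 bases early with 2 mismatches in both. The counts under these 3 names therefore hold reads whose most frequent form is not the annotated miRNA, and where those reads come from was not tested. With an arm in the name, miR-7679-3p was the most abundant with a mismatch in both libraries, 24 and 20 counts, and its read caggatcccagggtaccaaccagT differed in its last base.

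The libraries were also set against each other, miRNA by miRNA where the summed count was 10 or more. An exact binomial test (two-sided) took its expected share from the totals of the table, and p-values were adjusted by Benjamini-Hochberg over all miRNAs tested. This sets 2 libraries of the same group side by side and compares no conditions. Over all 710 miRNAs tested 27.7% were called, and of the 93 late-numbered ones tested 1 was called and 4 had an unadjusted p below 0.05. The called miRNA was miR-6239, at 18.2 CPM in replicate 1 and 24.9 CPM in replicate 2, 0.45 higher on the log2 scale (exact binomial test, adjusted p = 0.0173). Its most frequent reads were not the annotated miRNA, so the difference is one of counts under that name. The median log2 ratio of replicate 2 over replicate 1 was −0.11 in the 93 and −0.12 in all 710. Low counts go with few calls: of the 57 late-numbered miRNAs at 1 to 10 CPM none was called, and of 218 others at that level 8 were. The choice of miRNAs used these same counts, so the number is a description. Across the 93, the log2 CPM of both libraries gave Pearson's r = 0.916 and Spearman's rho = 0.845, over miRNAs that share the libraries and their depth.

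The 174 sequences held 171 different seeds, so few of these miRNAs form families with each other by their annotated sequences. The seed GGGCUGA was shared by miR-6911-5p, miR-7028-5p and miR-7662-5p, and AGGAGGA by miR-6916-5p and miR-6942-5p. Their summed levels were 1.15 and 0.426 CPM. The most frequent reads did not always keep these seeds: that of miR-6911-5p began 2 bases early in both libraries, with the seed GUGGGCU, and those of miR-6916-5p and miR-6942-5p had another start in 1 library each. A seed in common with another detected miRNA was found for 11, and in several the other miRNA was more abundant. miR-6240 (1.03 CPM) shared CAAAGCA with miR-330-3p (119 CPM) by annotation only, since its most frequent reads began 8 and 2 bases late with the seeds CGCGAAG and AAGCAUC. miR-6932-3p (1.33 CPM) shared CUGUUCU with miR-26a-2-3p (48.3 CPM). miR-7662-3p (0.365 CPM) shared GGAGCCA with miR-505-5p (42.4 CPM), and miR-6915-5p (0.426 CPM) shared GGUCAGA with miR-540-3p (30.8 CPM). In these pairs the lower-numbered miRNA was the more abundant, while in miR-7006-3p (1.27 CPM), which shared UUCUGAC with miR-1966-3p (0.793 CPM), the late-numbered miRNA was the higher in mean.

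As a reference for splice-made hairpins with lower numbers, the long-known mirtrons miR-1224, miR-877 and miR-702 were read from the same table. Each reaches both splice sites of an intron within 10 bases, in Vwa5b2, Abcf1 and Plod3. miR-1224-5p had 474 and 544 counts (61.9 ± 7.18 CPM, SD, n = 2) beside 1 and 1 of miR-1224-3p. miR-877-5p had 169 and 131 (18.2 ± 2.92 CPM) beside 6 and 6 of miR-877-3p. Both had more counts on the 5p side. Among late-numbered hairpins that fill an intron, miR-7068 had 1 and 1 counts of 5p beside 23 and 32 of 3p, and miR-6958 had 0 and 0 beside 21 and 13. No 5p row was used for miR-6944, so its arms are not compared. miR-702-3p had 16 and 10 counts (1.58 ± 0.486 CPM) beside 8 and 3 of miR-702-5p, and its most frequent read ended in the addition AGT in both libraries, as did that of miR-7666-3p.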

How the data were processed

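Small RNA of 18 to 30 nt was sequenced from CD-1 retina in 2 libraries, per the labels' protocols. The submitters' processing notes name bcl2fastq 2.17.1.14; the aligner, counter and build were not given in the sources used here. The authors deposited unscaled estimated counts per mature miRNA, a CPM table summing to 88.5% of its nominal total, and each miRNA's most frequent read, marked against miRBase 21 per the file headers (a shorter 3′ end carries no mark). None of the 195 miRNAs had a fractional count; others were rounded for tests. CPM was recomputed from the table totals. A count of 10 has a counting error of 31.6%; intervals cover counting error only, because reads lack molecular identifiers.

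RefSeq (GRCm38.p6) had no entry for 21 of the 195, among them miR-6540-5p, miR-7666-3p and miR-7224-3p. Members and lists were chosen with earlier results of these data known. Named miRNAs were the 10 highest in mean CPM, the arms of tested hairpins, those called between libraries, those at the threshold, shared seeds, and up to 5 per class of mark or position by level; other hairpins that fill an intron or reach a 5′ splice site were named after their values were seen. Alternatives changed scaling (edgeR 4.0.16 TMM, DESeq2 1.42.0 size factors), minimum counts, the added constant, the fold, the splice distance and the libraries used. Python 3.11.15, SciPy 1.17.1 and statsmodels 0.14.6 were used. The tests were tried on simulated counts that held counting error only, so these trials do not cover further spread between libraries.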

Additional observations from a re-analysis of the deposited data

How the results depend on the processing

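Of 38 alternative values of the main results, 29 stayed near the value reported. Near meant within 1.5 times for counts and within 1 SD for the share of counts and the median level. For percents of most frequent reads it meant inside the 95% exact binomial interval. None of these values can be negative, so a change of direction was not possible. With TMM or DESeq2 scaling 2 late-numbered miRNAs in place of 1 differed between libraries, miR-6239 and miR-6540-5p, both higher in replicate 2. Over all 710 miRNAs tested, 26.1% were called with TMM and 26.3% with DESeq2. Both scalings moved the median log2 ratio of all miRNAs from −0.12 to nearly 0. A minimum of 5 counts over both arms gave 44 hairpins dominated by 1 arm in place of 29, since more hairpins were tested (60 in place of 35). The 3p side then weighed less: 33 of the 60 were dominated by 3p and 11 by 5p, and 3p was called higher in 29 of the 60, against 25 of 35. The share over all hairpins was not computed at this minimum. At the minimum of 10 counts it was 43.3%, so 29 of 60 is not read as setting these hairpins apart. The deposited CPM gave a share of 0.0777% in place of 0.0880% and a median of 0.45 CPM, being scaled to a larger total. A rule of at least 3 counts in both libraries left 109 miRNAs and 10 counts left 46; in the latter, 67.4% had the same most frequent read and 50% had added 3′ bases in both libraries. Hairpins at a splice site numbered 94 within 5 bases and 99 within 20. Leaving out 1 library gave 33 to 40 called arm differences and 33 to 39 dominated hairpins among 39 to 47 tested. The share called over all hairpins was not computed with 1 library left out. Shares of counts were then 0.0878 to 0.0882%, medians 0.493 to 0.600 CPM, and 247 to 249 miRNAs were above 0. Without replicate 2, arm differences were also called in miR-6948 (−2.81), miR-7070 (−4.52) and miR-7679 (−1.37), and without replicate 1 in miR-7021 (3.97). The test between libraries cannot leave one out. No paired analysis was possible because the study has 1 group. Depth limits most of the 195, of which 102 had under 10 counts over both libraries.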
